A study of Mus musculus with 6 samples.

Results

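The genes of the unfolded protein response and the integrated stress response were examined in RNA of fetal liver (FL) cells from Pogz+/+ and Pogz-/- mouse embryos. There were 44 of them among the 18193 genes measured, chosen by function as endoplasmic reticulum (ER) chaperones, genes of ER-associated degradation (ERAD), stress sensors, stress transcription factors and targets of ATF4. All 44 were on the array, with 104 probe sets that name 1 gene. Each gene was read from its probe set with the highest mean signal over the 6 arrays, and all values are log2 of the deposited intensity.

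There were 3 livers of each genotype at E14.5, 1 array each, all congenic on C57BL/6. Pogz-/- embryos lack Pogz in the whole body, after germline deletion of a floxed allele by β-actin-cre, and Pogz+/+ embryos carry both intact alleles. Whole livers were minced and filtered before RNA extraction, so the RNA was that of all cell types together. The question was which genes and pathways the loss of Pogz changes in FL cells. The brightest of 4 probe sets of Pogz read 9.17, 9.03 and 8.95 in Pogz+/+ replicates 1 to 3 and 9.16, 9.22 and 9.33 in Pogz-/- (log2 fold change 0.18 over 6 arrays, limma, adjusted p = 0.598). The position of these probe sets against the deletion was not analysed here, so they are no check of the genotypes.

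The library labelled Pogz+/+ replicate 1 stood apart. Its ratio of 3′ to 5′ β-actin signal was 52.3. Pogz+/+ replicates 2 and 3 had 5.50 and 6.63, and the Pogz-/- arrays 3.72 to 4.09. The same ratio for Gapdh was 15.3, against 7.37 and 9.29 and against 4.87 to 5.08, so the remaining Pogz+/+ arrays also lay above all Pogz-/- arrays. Replicate 1 correlated with the other arrays at 0.794 to 0.810, and the others with each other at 0.884 to 0.906. Tests are therefore given over all 6 arrays and over the 5 arrays without replicate 1, which leave 2 Pogz+/+ livers. A fold change with no mention of 6 arrays is that of the 5, and the value over 6 stands beside it where they differ by more than 1.5 times or in sign. The part of RNA quality in the results was not tested.

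Proteins that misfold in the ER activate the sensors IRE1α (Ern1), ATF6 and PERK (Eif2ak3). IRE1α splices the mRNA of XBP1, and XBP1 and ATF6 raise chaperones and ERAD genes. PERK is also among the kinases that phosphorylate the translation factor eIF2α, along with GCN2 (Eif2ak4), which senses missing amino acids, and HRI (Eif2ak1), which senses low heme and is best known from red cell precursors, the main cells of the FL at this stage. Phosphorylated eIF2α slows translation in general and favours that of ATF4, which raises genes of amino acid synthesis and transport, and the phosphatase subunit GADD34 (Ppp1r15a) reverses the phosphorylation. The array measures mRNA, not splicing, phosphorylation or translation.

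The chaperone arm and the ATF4 arm read different promoter elements, and these are shown because the genes are described by arm. RefSeq promoters (GRCm38.p6, 250 bases before the start, both strands) were found for 38 of the 44 genes, 5 of them with several starts. The ER stress response element, which is CCAAT, then 9 bases of any kind, then CCACG, was in 7 of 13 chaperone promoters, 2 of 6 ERAD promoters and none of the other groups, against 0.13% of 27025 genes. Its matches are printed in the direction of the element with its fixed letters in capitals:
Hspa5: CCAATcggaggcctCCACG
Hsp90b1, farther from the start: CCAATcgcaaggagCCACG
Hsp90b1, nearer to the start: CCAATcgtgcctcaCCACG
Calr: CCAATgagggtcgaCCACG
Canx: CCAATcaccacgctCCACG
Creld2: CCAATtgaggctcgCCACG
Dnajc3: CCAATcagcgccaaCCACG
Pdia6: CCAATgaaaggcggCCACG
Derl3: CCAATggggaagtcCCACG
Syvn1: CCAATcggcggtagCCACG
The shorter form, ATTGG and CCACG with 1 base of any kind between them, was in the promoter of Herpud1 alone among the 38, as ATTGGgCCACG from 52 to 42 bases before the start, against 0.037% of all genes. The XBP1 element TGACGTGG was in none of the 38 and in 0.603% of all genes. The element read by ATF4 with C/EBP partners, TGATGNAAN, was in 4 of 10 promoters of the ATF4 target group and in none of the 13 chaperone promoters, against 3.89% of all genes:
Asns: TGATGaAAc
Chac1: TGATGcAAc
Vldlr: TGATGcAAc
Slc7a11, in both of its matches: TGATGcAAa
It was also found once each in Atf3 and Herpud1. These are matches of letters, not measured binding sites.

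Over all 6 arrays, none of the 44 genes passed the test (limma with trend and robust, adjusted p under 0.05), and 0.121% of all genes did (0.0989% higher, 0.022% lower). At an unadjusted p under 0.05 there were 6 higher and 6 lower in Pogz-/-, where 17.7% of all genes passed that level (1300 higher, 1922 lower), and the methods' t-test also called 0. Without Pogz+/+ replicate 1, 6 of the 44 genes passed, or 13.6%, against 4.48% of all genes (2.41% higher, 2.07% lower). Pdia3 and Psat1 rose in Pogz-/-, and Hspa5, Eif2ak1, Asns and Ppp1r15a fell. With plain eBayes or the methods' t-test on these 5 arrays 0 passed. With 1 more array left out, Pdia3 passed without Pogz+/+ replicate 2, Eif2ak1 without Pogz-/- replicate 2, none without Pogz+/+ replicate 3 or Pogz-/- replicate 3, and all but Hspa5 without Pogz-/- replicate 1. Bright genes pass more often: 43 of the 44 were above the median signal of the array, and when only such genes were tested 8 of the 43 passed, or 18.6%, against 11.5% of 10220 genes. The arrays of the genotypes did not overlap over 6 arrays for 9 genes higher and 7 lower in Pogz-/-, where 10.8% and 16.3% of all genes (27.1% in either direction) did not. Without replicate 1 they did not overlap for 9 higher and 9 lower, where 14.9% and 21.7% of all genes (36.6% in either direction) did not. The median log2 fold change of the 44 was -0.01 (-0.03 over 6 arrays), and that of all genes was -0.10 (-0.17 over 6 arrays). Log2 fold changes of the 44 ranged from -0.83 to 0.85 (-0.98 to 1.38 over 6 arrays).

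These directions depend on the scaling. When each array was centred on its median, the median change over all genes on the log2 scale moved from -0.10 to 0.18, and calls over all genes went from 439 higher and 376 lower to 1844 higher and 100 lower. Of the 44, 7 were then higher (Pdia3, Psat1, Pdia4, Atf4, Hsp90b1, Dnajb9 and Eif2ak4) and 0 lower. After quantile normalization, which put the median of all genes at -0.02, Pdia3 and Psat1 remained higher and Eif2ak1 and Ppp1r15a lower. Pdia3 and Psat1 passed under all 3 scalings, and Hspa5 and Asns only under that of the deposited values.

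**Figure D1:**
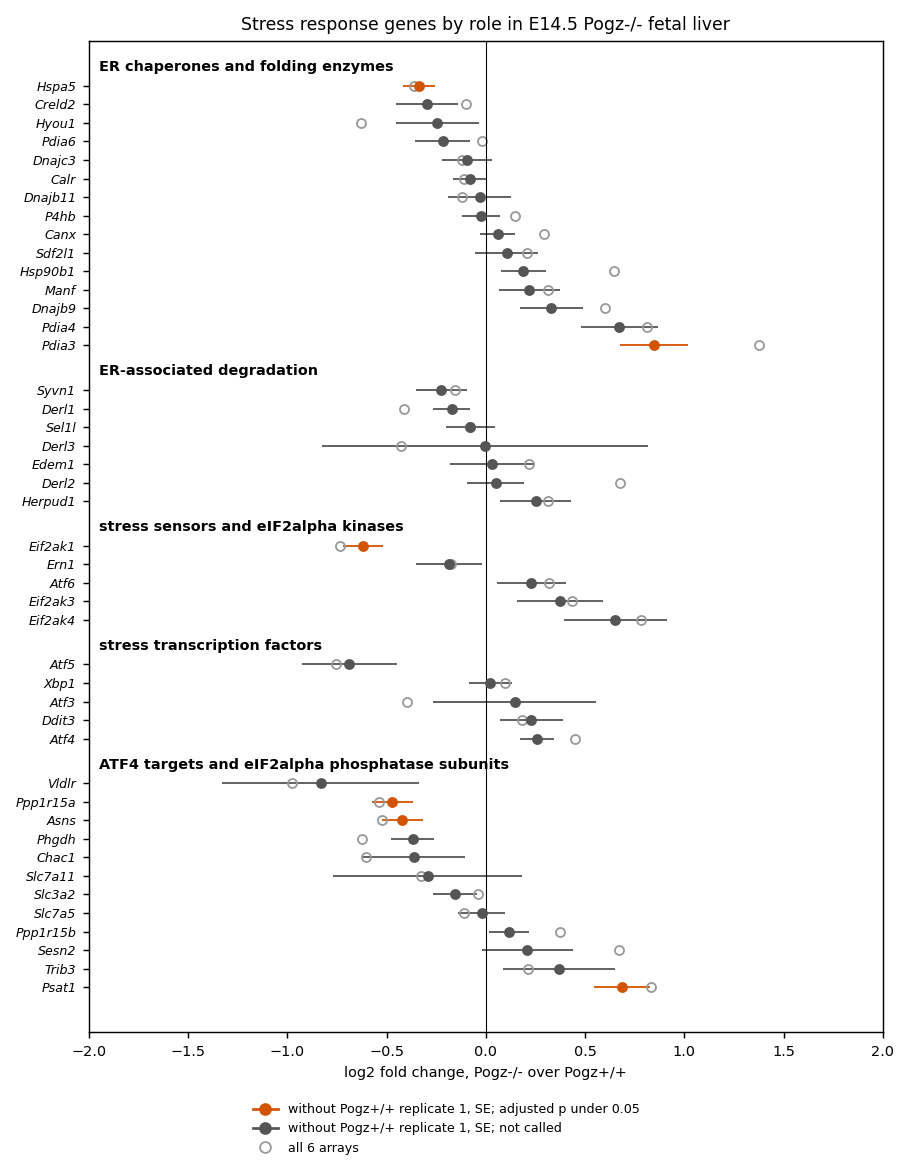
Log2 fold change, Pogz-/- minus Pogz+/+, of the 44 genes by role. Filled points are the fit without Pogz+/+ replicate 1 with its SE (orange where the adjusted p was under 0.05) and open points the fit over all 6 arrays; the 6 orange points lie on both sides of 0, with 2 above and 4 below, and after median centring 7 genes passed above 0 and 0 below.

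Among the 15 ER chaperones and folding enzymes, 1 rose and 1 fell without replicate 1, where 2.41% of all genes rose and 2.07% fell. The median log2 fold change of the 15 was -0.02, 0.05 after quantile normalization and 0.25 after median centring, and 0.15 over 6 arrays. Hspa5 encodes BiP, the abundant HSP70 of the ER that holds the sensors inactive. It read 12.82, 12.84 and 12.65 in Pogz+/+ replicates 1 to 3 and 12.34, 12.40 and 12.48 in Pogz-/-. Every Pogz-/- array was below every Pogz+/+ array, by a small margin. The fit gave -0.34 ± 0.08 (SE, limma, adjusted p = 0.0423) without replicate 1, 1.26-fold, and -0.36 over 6 arrays (limma, adjusted p = 0.225). It was -0.06 after median centring without replicate 1, where it did not pass, and 0.10 over 6 arrays.

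Pdia3, the disulfide isomerase that works with calnexin and calreticulin on glycoproteins, went the other way. It read 6.68, 8.52 and 8.02 in Pogz+/+ and 8.87, 9.19 and 9.29 in Pogz-/-. All Pogz-/- arrays were above all Pogz+/+ arrays, and replicate 1 was far below the other Pogz+/+ arrays. Without it the means were 8.27 ± 0.35 (SD, n = 2) in Pogz+/+ and 9.12 ± 0.22 (SD, n = 3) in Pogz-/-. The log2 fold change was 0.85 ± 0.17 (SE, limma, adjusted p = 0.0187) or 1.80-fold. Over 6 arrays it was 1.38 (limma, adjusted p = 0.147).

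Pdia4, another disulfide isomerase, read 6.84, 7.13 and 7.37 in Pogz+/+ and 7.70, 7.84 and 8.24 in Pogz-/-. The groups did not overlap, but the gene did not pass over all genes (0.67 ± 0.19, SE, limma, adjusted p = 0.0809 without replicate 1). It passed among genes above the median signal (limma, adjusted p = 0.0399). Hsp90b1, which encodes the ER form of HSP90, read 9.72, 11.16 and 11.02 in Pogz+/+ and 11.07, 11.29 and 11.47 in Pogz-/-. Its log2 fold change of 0.64 over 6 arrays was 0.19 without replicate 1 (limma, adjusted p = 0.419), since that array was lower than the rest by more than 1 unit. The remaining chaperones without replicate 1 lay between -0.30 (Creld2, -0.10 over 6 arrays) and 0.33 (Dnajb9, 0.60 over 6 arrays). Calr and Canx, the lectin chaperones that bind glycoproteins with Pdia3, were at -0.08 and 0.06 (-0.11 and 0.29 over 6 arrays), and Calr was at 0.07 after quantile normalization and 0.19 after median centring.

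The promoters of the chaperones that moved apart are shown as examples, with the element in capitals where there was a match. Other chaperones that hold it lay on both sides of 0 without replicate 1, such as Hsp90b1 (0.19, 0.64 over 6 arrays) and Creld2 (-0.30, -0.10 over 6 arrays). A link between the element and the direction of a gene was not tested. That of Hspa5 (chr2:34771840-34772089, plus strand) holds the ER stress response element 65 to 47 bases before the start, and that of Pdia3 (chr2:121413652-121413901, plus strand) has no exact match in this window.
Hspa5: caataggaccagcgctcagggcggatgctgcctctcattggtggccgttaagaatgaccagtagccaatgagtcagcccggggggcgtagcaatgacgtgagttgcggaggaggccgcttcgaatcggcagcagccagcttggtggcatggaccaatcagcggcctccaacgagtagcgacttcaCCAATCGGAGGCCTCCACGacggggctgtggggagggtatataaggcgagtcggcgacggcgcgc
Pdia3: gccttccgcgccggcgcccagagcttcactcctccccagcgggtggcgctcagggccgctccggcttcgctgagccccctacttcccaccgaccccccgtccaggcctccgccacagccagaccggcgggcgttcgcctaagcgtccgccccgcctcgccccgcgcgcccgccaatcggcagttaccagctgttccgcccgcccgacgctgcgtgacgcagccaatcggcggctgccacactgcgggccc

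None of the 7 ERAD genes passed, and none had an unadjusted p under 0.05 in either fit (limma; the methods' t-test also called 0). Their median log2 fold change was -0.00 without replicate 1, with a range of -0.22 to 0.25. Over 6 arrays it was -0.08, with a range of -0.43 to 0.68, and after median centring without replicate 1 it was 0.27. Herpud1, a scaffold of the ERAD complex, read 7.03, 7.24 and 7.19 in Pogz+/+ and 7.55, 7.30 and 7.54 in Pogz-/-. The groups did not overlap, and the difference was 0.25 ± 0.18 (SE, limma, adjusted p = 0.496). Syvn1, the ubiquitin ligase HRD1, was at -0.22 (limma, adjusted p = 0.382), and at 0.05 after median centring. Derl1 was at -0.17 in its brightest probe set (limma, adjusted p = 0.35; -0.41 over 6 arrays) and at 0.10 after centring. Of its 4 probe sets, 3 were above 0 and 1 below in both fits. Derl2, another derlin of the membrane channel, read 6.12 in Pogz+/+ replicate 1 and between 7.95 and 8.14 in the other 5 arrays. Its log2 fold change of 0.68 over 6 arrays was therefore 0.05 without that array.

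Of the 5 sensors and eIF2α kinases, 1 fell without replicate 1, where 2.07% of all genes fell. Eif2ak1, the heme-regulated kinase HRI, read 11.12, 10.71 and 10.84 in Pogz+/+ and 10.19, 10.23 and 10.04 in Pogz-/-. The gap between the groups was wider than the range within either, and replicate 1 was the highest. Means without replicate 1 were 10.77 ± 0.09 (SD, n = 2) and 10.15 ± 0.10 (SD, n = 3). The log2 fold change was -0.62 ± 0.10 (SE, limma, adjusted p = 0.00687) or 1.54-fold. This was the smallest adjusted p of the 44 genes in this fit. Over 6 arrays it was -0.74 (limma, adjusted p = 0.0972), and after median centring without replicate 1 it was -0.35 (limma, adjusted p = 0.0741).

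Of the other members that phosphorylate eIF2α, Eif2ak4 and Eif2ak3 had higher means in Pogz-/-, and neither passed. Eif2ak4 (GCN2) read 6.10, 6.06 and 6.91 in Pogz+/+ and 7.25, 7.07 and 7.10 in Pogz-/-, a difference of 0.65 ± 0.26 without replicate 1 (SE, limma, adjusted p = 0.209) that passed only after median centring. Eif2ak3 (PERK) read 6.40, 6.49 and 6.66 against 6.90, 6.79 and 7.15, a difference of 0.37 ± 0.22 (SE, limma, adjusted p = 0.392). In both genes every Pogz-/- array was above every Pogz+/+ array. Atf6 was at 0.23 (limma, adjusted p = 0.52) and Ern1 (IRE1α) at -0.19 (limma, adjusted p = 0.592; 0.09 after median centring), each with overlapping groups.

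None of the 5 transcription factors passed (limma, and the methods' t-test also called 0), with 1 higher and 1 lower at an unadjusted p under 0.05. Of all genes, 17.7% passed that level over 6 arrays and 18.3% without replicate 1. Atf4 read 10.86, 11.44 and 11.41 in Pogz+/+ and 11.76, 11.70 and 11.59 in Pogz-/-. The groups did not overlap, and the difference was 0.26 ± 0.09 without replicate 1 (SE, limma, adjusted p = 0.126) and 0.45 over 6 arrays. It passed after median centring, at 0.53 (limma, adjusted p = 0.00458). Atf5, a relative of Atf4 that is also translated under stress, lay the other way at 7.46, 7.04 and 7.48 in Pogz+/+ and 6.79, 6.67 and 6.26 in Pogz-/- (-0.69 ± 0.24, SE, limma, adjusted p = 0.151 without replicate 1).

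Xbp1 read 10.01, 10.28 and 10.19 in Pogz+/+ and 10.27, 10.12 and 10.38 in Pogz-/-, and the groups overlapped (0.02 ± 0.11, SE, limma, adjusted p = 0.942 without replicate 1; 0.10 over 6 arrays; -0.02 after quantile normalization). Ddit3 encodes CHOP, the factor tied to cell death in long ER stress. It read 8.37, 8.09 and 8.38 in Pogz+/+ and 8.57, 8.57 and 8.25 in Pogz-/-, with overlap (0.23 ± 0.16, SE, limma, adjusted p = 0.481). Atf3 was at -0.40 over 6 arrays and at 0.15 without replicate 1, which was the highest Pogz+/+ array by more than 1 unit.

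**Figure D2:**
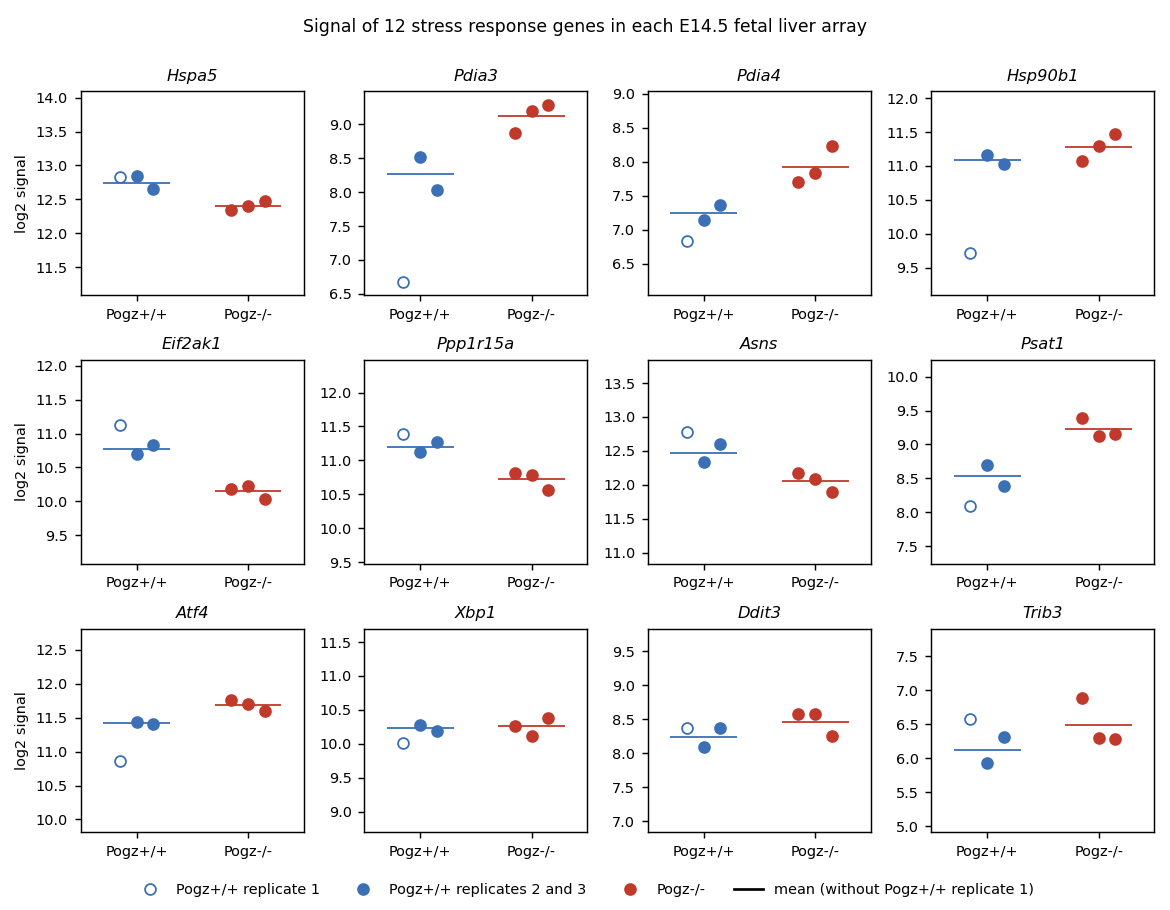
Log2 signal of 12 of the genes in each array (vertical axes) by genotype; bars are means, which leave out the open circle, Pogz+/+ replicate 1. Points of Hspa5, Eif2ak1, Ppp1r15a and Asns are lower in Pogz-/-, those of Pdia3, Pdia4, Psat1 and Atf4 higher, and those of Xbp1, Ddit3 and Trib3 overlap; after median centring the 4 lower genes no longer passed.

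Of the 12 ATF4 targets and phosphatase subunits, 1 rose and 2 fell without replicate 1, where 2.41% of all genes rose and 2.07% fell. The median log2 fold change of the 12 was -0.22 in both fits, but -0.10 after quantile normalization and 0.05 after median centring without replicate 1. Asns, asparagine synthetase, read 12.78, 12.33 and 12.61 in Pogz+/+ and 12.17, 12.08 and 11.90 in Pogz-/-. The groups did not overlap, and the difference was -0.42 ± 0.10 (SE, limma, adjusted p = 0.0449) or 1.34-fold without replicate 1, and -0.52 over 6 arrays (limma, adjusted p = 0.171). It was -0.15 after median centring, where it did not pass.

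Psat1, an enzyme of serine synthesis, rose. It read 8.10, 8.69 and 8.38 in Pogz+/+ and 9.39, 9.12 and 9.16 in Pogz-/-. Again the groups did not overlap. Without replicate 1 the means were 8.54 ± 0.22 (SD, n = 2) and 9.22 ± 0.14 (SD, n = 3). The log2 fold change was 0.69 ± 0.14 (SE, limma, adjusted p = 0.0186) or 1.61-fold, and it was 0.83 over 6 arrays (limma, adjusted p = 0.11). Phgdh, which catalyses the first step of the same pathway, lay the other way in its brightest probe set, at 12.25, 11.35 and 11.61 against 11.12, 10.97 and 11.25. It did not pass over all genes (-0.37 ± 0.11, SE, limma, adjusted p = 0.0909; -0.62 over 6 arrays) but did among genes above the median signal (limma, adjusted p = 0.0478).

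Ppp1r15a, which encodes the stress-induced subunit GADD34 of the eIF2α phosphatase, fell. It read 11.39, 11.12 and 11.27 in Pogz+/+ and 10.82, 10.79 and 10.56 in Pogz-/-. The groups did not overlap, and the difference was -0.47 ± 0.10 (SE, limma, adjusted p = 0.026) or 1.39-fold without replicate 1, -0.54 over 6 arrays (limma, adjusted p = 0.147), and -0.20 after median centring, where it did not pass. Ppp1r15b, the constitutive subunit, was at 0.12 with overlap (limma, adjusted p = 0.583; 0.37 over 6 arrays). Trib3, a pseudokinase induced through CHOP, was at 0.37 ± 0.28 (SE, limma, adjusted p = 0.531; 0.21 over 6 arrays) with overlap. The remaining targets lay between -0.83 (Vldlr) and 0.21 (Sesn2, 0.67 over 6 arrays), and none passed. Vldlr read 6.09, 6.40 and 4.91 in Pogz+/+ and 4.65, 5.03 and 4.79 in Pogz-/-, with overlap and an SE of 0.50. Of its 6 probe sets, 4 were above 0 and 2 below without replicate 1, and all but the brightest were below the median signal. Slc7a11, the cystine transporter, was the gene below the median signal. The heavy and light chains of the amino acid exchanger, Slc3a2 and Slc7a5, were at -0.16 and -0.02 (-0.04 and -0.11 over 6 arrays), and at 0.12 and 0.25 after median centring.

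The promoters of the ATF4 targets that moved apart are shown likewise, as examples. Here too a link between the element and the direction of a gene was not tested. That of Asns (chr6:7693210-7693459, minus strand) holds the ATF4 element, in capitals, 23 to 15 bases before the start, and that of Psat1 (chr19:15925060-15925309, minus strand, the farther upstream of its starts) has no exact match in this window.
Asns: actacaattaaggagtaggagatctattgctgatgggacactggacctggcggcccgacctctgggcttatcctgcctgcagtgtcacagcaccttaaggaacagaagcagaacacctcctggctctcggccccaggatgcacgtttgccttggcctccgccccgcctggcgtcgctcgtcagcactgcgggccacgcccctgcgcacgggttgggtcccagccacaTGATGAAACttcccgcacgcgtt
Psat1: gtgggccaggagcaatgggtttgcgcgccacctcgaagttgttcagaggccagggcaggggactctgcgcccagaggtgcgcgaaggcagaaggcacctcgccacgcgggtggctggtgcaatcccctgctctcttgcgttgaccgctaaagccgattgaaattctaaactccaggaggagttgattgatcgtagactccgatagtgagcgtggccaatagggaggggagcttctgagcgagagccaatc

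Different probe sets of a gene often differed in sign. Of the 31 genes with more than 1 probe set, 18 had probe sets on both sides of 0 without replicate 1, 8 had all higher and 5 all lower. This count goes by sign alone, whatever the signal or SE. It includes Hspa5 through a probe set at 0.0003 (0.37 over 6 arrays) and Ern1 through a dim probe set at 1.15 ± 1.00 (SE, 0.13 over 6 arrays), with a mean signal of 1.96. No gene had probe sets that passed in both directions. The same count over all genes was not made. In the fit over 45037 probe sets, 0 of the 104 passed over 6 arrays, as did 0.0377% of all. Without replicate 1, 3 passed higher and 4 lower, against 2.67% of all. The brightest probe sets of Pdia3, Psat1, Eif2ak1 and Ppp1r15a passed there too, and those of Hspa5 and Asns did not (limma over probe sets, adjusted p = 0.057 and adjusted p = 0.0619). Of the other probe sets, 1 of Dnajc3 was higher at 1.18 (limma over probe sets, adjusted p = 0.0349), 1 of Calr lower at -0.39 (limma over probe sets, adjusted p = 0.0432) and 1 of Hspa5 lower at -0.77 (limma over probe sets, adjusted p = 0.00832). These 3 carry names of the _s_at or _x_at kind, which can share sequence with other transcripts.

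The third probe set of Hspa5 was at 0.00, and the other probe set of Asns at -0.07 and of Psat1 at -0.12 (0.37, 0.06 and -0.26 over 6 arrays). Those of Eif2ak1 were at -0.62, -0.14, -0.54, 0.14 and 1.20 from the brightest to the dimmest, and at -0.74, -0.25, -0.74, 0.32 and 0.69 over 6 arrays. Those of Phgdh were at -0.37, 0.26, 0.00 and -0.14 in the same order, and at -0.62, -0.20, 0.14 and -0.36 over 6 arrays. Those of Atf4 were at 0.26, -0.45 and 1.16, again from the brightest down, and at 0.45, -0.96 and 0.51 over 6 arrays, so Atf4 has no single direction over its probe sets. Ppp1r15a has 1 probe set. Those of Derl1 were at -0.17, 0.35, 0.41 and 0.02 from the brightest down, and at -0.41, 0.50, 0.58 and 0.15 over 6 arrays. Those of Xbp1 were at 0.02, 0.52, 0.08 and -0.78, and at 0.10, 0.76, 0.20 and -1.03 over 6 arrays. No probe set of Derl1 or Xbp1 passed. Of the 44 brightest probe sets, 9 carry names of the _s_at or _x_at kind, among them those of Asns, Phgdh, Derl1 and Xbp1.

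**Figure D3:**
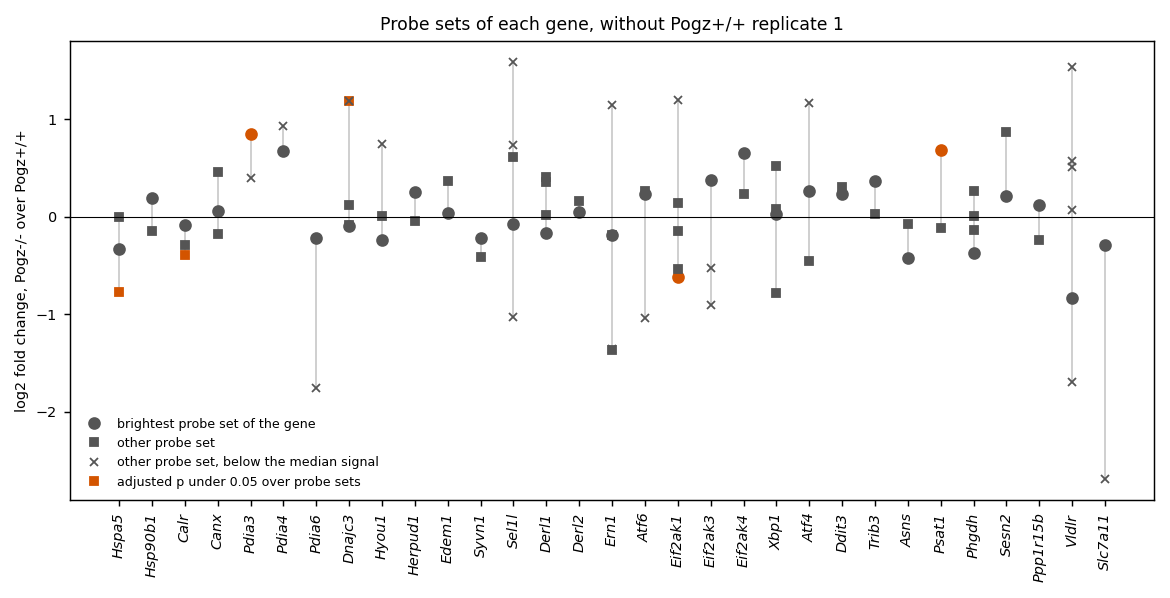
Log2 fold change, Pogz-/- minus Pogz+/+ without replicate 1, of each probe set of the 31 genes that have more than 1. Probe sets of 18 genes fall on both sides of 0, and the median of all genes lies at -0.10 on this scale, or at 0.18 after median centring.

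In Pdia3, Psat1, Eif2ak1, Asns and Ppp1r15a, Pogz+/+ replicate 1 lay beyond the other Pogz+/+ arrays, on the side away from Pogz-/-, and for Hspa5 it lay between them. Over the 44 brightest probe sets, replicate 1 minus replicate 2 correlated with Pogz-/- minus replicate 3 at r = -0.64, and with replicates 2 and 3 exchanged at r = -0.47. Over all 104 the values were -0.32 and -0.20. These correlations are descriptions across probe sets of the same arrays, which share transcripts and are not replicates. The same correlations over all genes were not computed, so they are not shown to be particular to the 44.

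**Figure D4:**
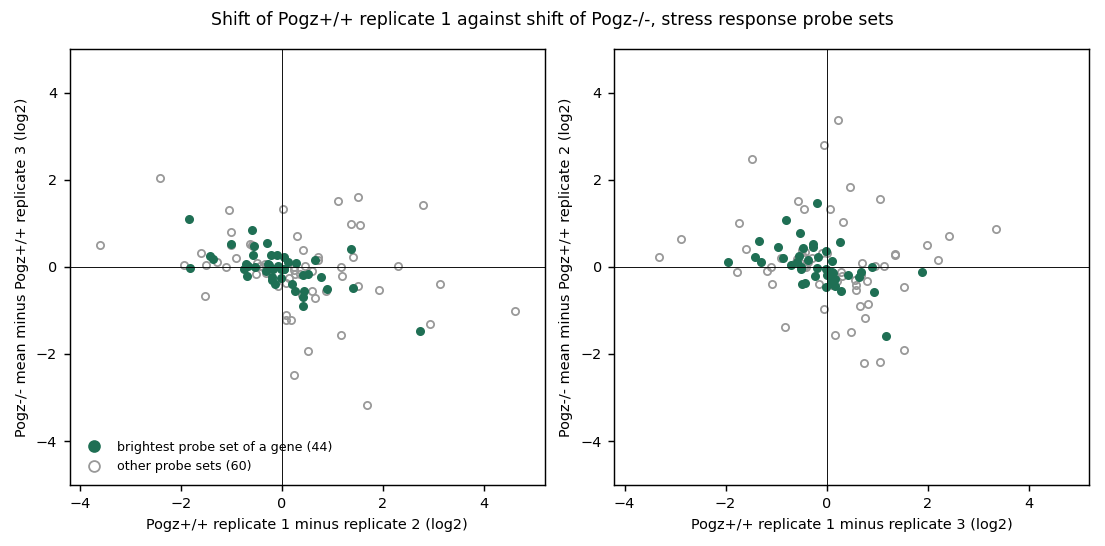
Difference of Pogz+/+ replicate 1 from another Pogz+/+ array (horizontal, log2) against the difference of the Pogz-/- mean from the remaining Pogz+/+ array (vertical, log2), for the 44 brightest and the other probe sets of the genes. Points run from upper left to lower right, with r = -0.64 and r = -0.47 over the brightest, and the same over all genes was not computed.

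Other genes of the same pathways were taken from a list of 122, of which 115 were measured. Over 6 arrays 0 passed (limma; the methods' t-test also called 0). Without replicate 1, 8 passed, all higher in Pogz-/-, or 6.96%, where 4.48% of all genes did (2.41% higher). When only genes above the median signal were tested, 11.5% passed, and how many of the 115 were that bright is not given. The median log2 fold change over the 115 was 0.02 (0.08 over 6 arrays). Cebpb and Nupr1 are in both the signalling and the ATF4 target list. By list, the 8 that passed were 4 of 37 genes of ER folding and translocation, 1 of 14 of signalling, 2 of 22 other ATF4 targets and 1 of 19 cytosolic tRNA synthetases. There were 0 of 17 of ERAD, and 0 of 8 in a list of eIF2 and eIF2B subunits that also holds the eIF2α kinase PKR (Eif2ak2, at -0.16). After quantile normalization 5 passed, where 3.72% of all genes did, and after median centring 37, where 10.7% did, all of the pathway genes higher.

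Txndc5, an ER thioredoxin of the PDI family, was higher by 0.78 ± 0.20 (SE, limma, adjusted p = 0.0468), and Fkbp2, an ER proline isomerase, by 0.74 ± 0.12 (SE, limma, adjusted p = 0.00666). Spcs1, a subunit of the signal peptidase, was higher by 0.64 ± 0.10 (SE, limma, adjusted p = 0.00485; 1.04 over 6 arrays), and Spcs3 of the same complex by 0.61 (limma, adjusted p = 0.0176; 0.95 over 6 arrays). Cebpg, a dimer partner of ATF4, was higher by 0.63 ± 0.15 (SE, limma, adjusted p = 0.0432). Cth, which makes cysteine from cystathionine, read 1.79, 5.09 and 5.72 in Pogz+/+ and 7.26, 6.87 and 6.33 in Pogz-/- (1.42 ± 0.33, SE, limma, adjusted p = 0.0331; 2.62 over 6 arrays), and Grb10, an adaptor of insulin signalling, was higher by 0.44 (limma, adjusted p = 0.0471). Cars, the cytosolic cysteinyl-tRNA synthetase, read 6.70, 7.05 and 6.74 in Pogz+/+ and 7.94, 8.14 and 7.88 in Pogz-/- (1.09 ± 0.18, SE, limma, adjusted p = 0.00667). In these genes all Pogz-/- arrays were above the Pogz+/+ arrays, as in 10.8% of all genes over 6 arrays and 14.9% without replicate 1. The genes were named because they passed on the same arrays, so this is no further support.

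Markers of cell types moved in the same arrays. Of all genes, 2.41% passed higher and 2.07% lower without replicate 1. Of 11 erythroblast markers, 7 were lower in Pogz-/- without replicate 1 (Alas2, Ermap, Hbb-bh1, Hbb-y, Klf1, Slc4a1 and Tfrc). After quantile normalization 2 were lower, where 3.72% of all genes passed (378 higher, 298 lower). After median centring 3 were lower, where 10.7% passed (1844 higher, 100 lower). Hbb-bh1 also passed over 6 arrays (-1.36, limma, adjusted p = 0.0212), where 0.121% of all genes did. The summed intensity of the 11 was 119304 to 120697 in Pogz+/+ replicates 2 and 3, 211401 in replicate 1 and 77778 to 84457 in Pogz-/-. Hbb-y was the brightest of them in every array, at 16.71, 15.30 and 15.20 in Pogz+/+ and 14.59, 14.69 and 14.53 in Pogz-/-. Hbb-y and Hbb-bh1 are embryonic globins, lower in these E14.5 arrays. The paper found both upregulated in Pogz-/- FL by real-time qPCR at a later stage. Of 8 early progenitor markers Kit and Myb were higher, but 5 (Hoxa9, Meis1, Gata2, Hlf and Cd34) were below 0 without passing, and the median of the list was -0.25. Kit and Myb held 66.0% to 82.8% of the summed intensity of the list. That sum lay between 2207 and 2915 for Pogz+/+ arrays and between 3404 and 3795 for Pogz-/- arrays. Of 10 granulocyte markers 4 were higher without replicate 1 (Camp, Ctsg, Lcn2 and Ltf), 3 after quantile normalization and 7 after median centring. Over 6 arrays 1 of the 10 passed, higher, also after quantile normalization, and 0 after centring. Sums of the 10 were 49346 to 55009 in Pogz+/+ replicates 2 and 3, 85575 in replicate 1 and 49866 to 57270 in Pogz-/-, with overlap.

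Of 12 hepatoblast markers Afp alone passed without replicate 1, lower, where 2.07% of all genes did. Below 0 were 9 others, and Alb (0.41, 0.76 over 6 arrays) and Ahsg (0.16) were above it, neither passing. After quantile normalization 0 of the 12 passed, and after median centring 1 did, lower, where 3.72% and 10.7% of all genes passed. The sums were 27554 to 50558 in Pogz+/+ and 16865 to 26606 in Pogz-/-, of which Afp alone held 62.3% to 85.5%. None of 9 macrophage, 8 B cell and plasma cell, 6 megakaryocyte or 8 endothelium and stroma markers passed, and no marker was listed at 0. After median centring without replicate 1, 1 macrophage marker passed, higher. The sums were 4702 to 5704 against 3366 to 4514 for macrophages, 330.0 to 577.8 against 250.1 to 304.8 for B and plasma cells, 4351 to 4734 against 3650 to 4503 for megakaryocytes, and 550.7 to 745.5 against 402.4 to 482.1 for endothelium and stroma. Markers of red cells, progenitors and hepatoblasts were thus measured in both genotypes, as the label fetal liver says. In whole-liver RNA, fewer cells of a type and less RNA per cell cannot be told apart, which applies to Eif2ak1, a kinase best known from red cell precursors, as to the other genes. The part of cell makeup in any of these differences was not tested.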

How the data were processed

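FL RNA at E14.5, from 3 livers of each genotype, was labelled with biotin by 3′ IVT and hybridized to Affymetrix mouse genome arrays. The deposited intensity values are linear probe set signals. The authors used Affymetrix Expression Console, with no version or algorithm stated. Each array has the same 2% trimmed mean of 150, but medians from 29.7 to 54.3, which quantile normalization would have made equal. The paper names GeneSpring for its own analysis, which was not used here. Log2 was taken with no pseudocount. Of 45101 probe sets, 64 controls were left out. Among 45037 tested, the probe annotation gives 34945 a single gene, 932 more than that and 9160 none here, and the brightest 1-gene probe set stood for each of 18193 genes.

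The members, the lists and the fit without Pogz+/+ replicate 1 were chosen with earlier results of these data known. Genotypes were compared with limma 3.58.1 in R 4.3.3 (lmFit, eBayes with trend and robust, two-sided, Benjamini-Hochberg adjustment over all genes or probe sets, call at an adjusted p under 0.05 whatever the fold). The calculation was tested on simulated data. The labels call the arrays biological replicates. Their number limits the precision. Named with values were all genes called, the 3 of each role with the largest moderated t in each fit, 11 fixed by role, and at most 3 called genes of each other list. Creld2, Dnajb9, Calr, Canx, Phgdh, Atf3, Ppp1r15b, Vldlr, Sesn2, Slc7a11, Slc3a2, Slc7a5 and Spcs3 are named with values or a direction outside this rule, after their values were seen. Alternatives were median centring, quantile normalization, a filter on dim probe sets, plain eBayes, the methods' t-test, a 1.5-fold threshold, the replicate number as a block, array weights, the mean of probe sets and leaving out each array. Promoters are those of RefSeq for GRCm38.p6, and element matches are printed for the members that hold them.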

Additional observations from a re-analysis of the deposited data

How the results depend on the processing

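With 3 arrays per genotype, 1 of them apart in RNA quality, the calls rest on few arrays, and in fits that leave 1 Pogz+/+ array it is assumed to vary like the others. Over 6 arrays, 0 of the 44 genes passed. This became 2 higher and 4 lower without Pogz+/+ replicate 1, and 2 higher and 3 lower with array weights, where the other pathway genes went from 0 to 5 higher and the other probe sets to 1 higher and 1 lower. Leaving out 1 of the 6 arrays gave 0 to 2 higher and 0 to 4 lower for the 44, 0 to 8 higher for the other pathway genes, and 0 to 1 higher and 0 to 2 lower for the other probe sets. Without replicate 1, the 44 gave 2 higher and 4 lower. Plain eBayes and the methods' t-test gave 0 of the 44, 0 other pathway genes and 0 other probe sets. The mean of probe sets gave 0 of the 44 in either direction and 1 pathway gene. Median centring gave 7 higher and 0 lower, 37 higher pathway genes, and 4 higher and 1 lower other probe sets. Quantile normalization gave 2 higher and 2 lower of the 44, 5 higher pathway genes and 1 lower other probe set. The 1.5-fold threshold left 2 higher and 1 lower of the 44 and 1 lower other probe set, and the filter on dim probe sets added 2 lower pathway genes. Leaving out 1 of these 5 arrays gave 0 to 2 higher and 0 to 3 lower of the 44, 0 to 5 higher and 0 to 3 lower pathway genes, and 0 higher and 0 to 2 lower other probe sets, against 1 and 2. The cause of these changes was not tested.

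No pairing by replicate number was seen: deviations of same-numbered arrays correlated at 0.0078, -0.0044 and -0.0050. The labels name no pairing, and a shared litter or processing day was not tested. With the replicate number as a block, 0 of the 44 passed over 6 arrays, and 3 higher and 5 lower passed without replicate 1, with 7 lower pathway genes, 2 higher other probe sets and a median of the ATF4 target group of -0.15.

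The median log2 fold change of the chaperones was 0.15 over 6 arrays, 0.61 after median centring and -0.02 to 0.23 with 1 array left out. Without replicate 1 it was -0.02, 0.25 after centring and 0.10 with the mean of probe sets. That of the ATF4 target group was -0.22 over 6 arrays, -0.10 after quantile normalization, 0.24 after centring, -0.11 with the dim filter, -0.13 with the mean of probe sets and -0.36 to -0.11 with 1 array left out. Without replicate 1 it was -0.10, 0.048, -0.16 and -0.061 under the same 4 settings and -0.23 to -0.10 with 1 more array left out. Of the 21 genes named by the rule, these changed sign. Over 6 arrays, median centring gave Hspa5 0.10, Syvn1 0.30, Derl1 0.046 and Ern1 0.29, and the mean of probe sets gave Derl1 0.20, Eif2ak3 -0.42 and Atf4 -0.0017. Without replicate 1, centring gave Syvn1 0.048, Derl1 0.10 and Ern1 0.086, the mean of probe sets gave Derl1 0.15, Atf6 -0.18, Eif2ak1 0.0075, Eif2ak3 -0.35 and Xbp1 -0.0405, and quantile normalization gave Xbp1 -0.021. The mean weighs dim probe sets like bright ones. It took in 1 of Eif2ak1 with a mean signal of 4.46 (1.20 ± 0.86, SE, without replicate 1). It also took in those of Eif2ak3 at 3.19 and 1.81 and 1 of Atf6 at 4.80, where the median signal was 5.17. With 1 more array left out, Derl2 ranged from -0.013 (without Pogz+/+ replicate 2) to 0.11, and Xbp1 from -0.0396 (without Pogz-/- replicate 3) to 0.092, with -0.019 without Pogz+/+ replicate 3. Of the members named beside them, Atf3 turned from -0.40 over 6 arrays to 0.15 without replicate 1. Over 6 arrays, median centring also turned Atf3 (0.06), Calr (0.35), Creld2 (0.36), Slc3a2 (0.42), Slc7a11 (0.14) and Slc7a5 (0.35), and quantile normalization Calr (0.09) and Slc7a11 (0.15). Without replicate 1, centring turned Calr (0.19), Slc3a2 (0.12) and Slc7a5 (0.25), and quantile normalization Calr (0.07) and Slc7a5 (0.0042).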
